A study of Mus musculus with 8 samples.

Results

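Proteasome and immunoproteasome genes were followed in the livers of mice without and with hepatocyte Bicd2. The genes were all rows whose symbol begins with Psma, Psmb, Psmc, Psmd or Psme and a digit, which gave 45 of the 13703 rows listed. Of these, 43 encode proteasome subunits, activators or assembly chaperones, while Psmc3ip and Psme3ip1 share only the prefix. The mutant livers gave 4 libraries of the genotype Alb-Cre Bicd2fl/fl, in which Cre recombinase under the albumin promoter acts in hepatocytes on loxP-flanked Bicd2, the gene of a dynein cargo adaptor. Their controls were 4 liver libraries of the genotype Alb-WT Bicd2fl/fl, which carry the same loxP-flanked gene without that Cre. Mice of both genotypes had S-100 induced AIH, a model of autoimmune hepatitis. In it, the animals received S-100, a liver extract emulsified in complete Freund's adjuvant, by injection into the peritoneum. The dose was 2.5 mg once a week over 3 weeks, with livers harvested 2 weeks after the last dose. No untreated liver was analysed here, and the labels give neither age nor sex. The labels do not state whether each library represents an animal of its own, so p-values measure only the spread among samples, part or all of which may be technical.

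The 26S proteasome degrades proteins tagged with ubiquitin. Its 20S core is a barrel of alpha and beta rings, in which beta1 (Psmb6), beta2 (Psmb7) and beta5 (Psmb5) cut peptides, and its 19S cap binds, unfolds and feeds in the substrate. Interferon gamma induces the replacements beta1i (Psmb9), beta2i (Psmb10) and beta5i (Psmb8), which assemble into the immunoproteasome, and the PA28 ring (Psme1 and Psme2), and these alter the peptides made for display on MHC class I. Leukocytes carry much immunoproteasome, whereas hepatocytes at rest mostly carry the constitutive form.

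Bicd2 checked the labels and was lower in every Alb-Cre library. It had 0.705, 0.568, 0.509 and 0.732 FPKM in the Alb-Cre libraries, against 2.46, 3.02, 2.80 and 3.11 FPKM in the Alb-WT libraries. It fell by 1.24 on a log2 scale (limma adjusted p = 7.25e-05). FPKM is the number of sequenced fragments per kilobase of gene, scaled to the library total. Fragments recovered from the FPKM values came to between 32524927 and 38893858 per library over the listed genes, and hepatocyte markers were abundant in every library. Alb-Cre replicate 4 stood apart from its group. Over the tested genes its levels correlated at 0.958 to 0.960 with the other Alb-Cre libraries and at 0.974 to 0.977 with the Alb-WT libraries, whereas libraries within either of the remaining sets correlated at 0.995 to 0.996. The inducible genes and the counts over all tested proteasome genes are therefore given with and without it, as are some other genes and lists.

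Of the 3 inducible catalytic subunits 2 fell in Alb-Cre livers, where 23.3% of the 11077 genes tested were called lower and 8.48% higher, and Alb-Cre replicate 4 departed from its group in each of them. Psmb9, the beta1i subunit, had 6, 4.99, 5.75 and 12.7 FPKM in the Alb-Cre libraries, against 12.9, 13.2, 12.2 and 14.3 FPKM in the Alb-WT libraries. Alb-Cre replicates 1 to 3 lay below every Alb-WT library, and Alb-Cre replicate 4 lay inside the Alb-WT range, so the groups overlapped by that library. The gene averaged 7.37 ± 3.60 FPKM in Alb-Cre and 13.2 ± 0.907 FPKM in Alb-WT livers (SD, n = 4 each). Its log2 fold change on the scale of log2(FPKM + 1), used for every fold change here unless said otherwise, was -0.84 (SE 0.231, limma adjusted p = 0.0264), which passed the threshold of 0.05. In bulk tissue, fewer cells of a type and less RNA per cell cannot be told apart.

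Psmb10, the beta2i subunit, had 18.9, 19.3, 20.6 and 30.8 FPKM in the Alb-Cre libraries, against 33.4, 32.0, 28.6 and 37.5 FPKM in the Alb-WT libraries. Again 3 Alb-Cre libraries lay below the Alb-WT range and replicate 4 lay within it. The gene fell by 0.55 on the log2 scale (SE 0.154, limma adjusted p = 0.0271). Psmb8, the beta5i subunit, had 7.83, 7.19, 8.12 and 16.3 FPKM in the Alb-Cre libraries, against 14.1, 14.2, 13.1 and 16.3 FPKM in the Alb-WT libraries. Here Alb-Cre replicate 4 was as high as the highest Alb-WT library, and the log2 fold change of -0.58 did not pass the threshold (SE 0.216, limma adjusted p = 0.0681).

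Without Alb-Cre replicate 4 all 3 inducible catalytic genes passed the threshold and their differences grew. The log2 fold change was then -1.11 for Psmb9 (limma adjusted p = 5.73e-07), -0.71 for Psmb10 (3.12e-05) and -0.82 for Psmb8 (5.33e-06). The calls with all libraries were narrow. Psmb9 kept its call in 1 of the 8 fits that each left out 1 library, the fit without Alb-Cre replicate 4, and its limma adjusted p reached 0.0741 over 17 alternatives. Psmb10 kept its call without Alb-Cre replicate 4 and without Alb-WT replicate 3 but lost it without any of the other 6 libraries (limma adjusted p up to 0.0759). Psmb8 passed in 2 of 17 alternatives, with limma adjusted p up to 0.162, and the direction of all 3 genes was the same in every alternative.

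**Figure D1:**
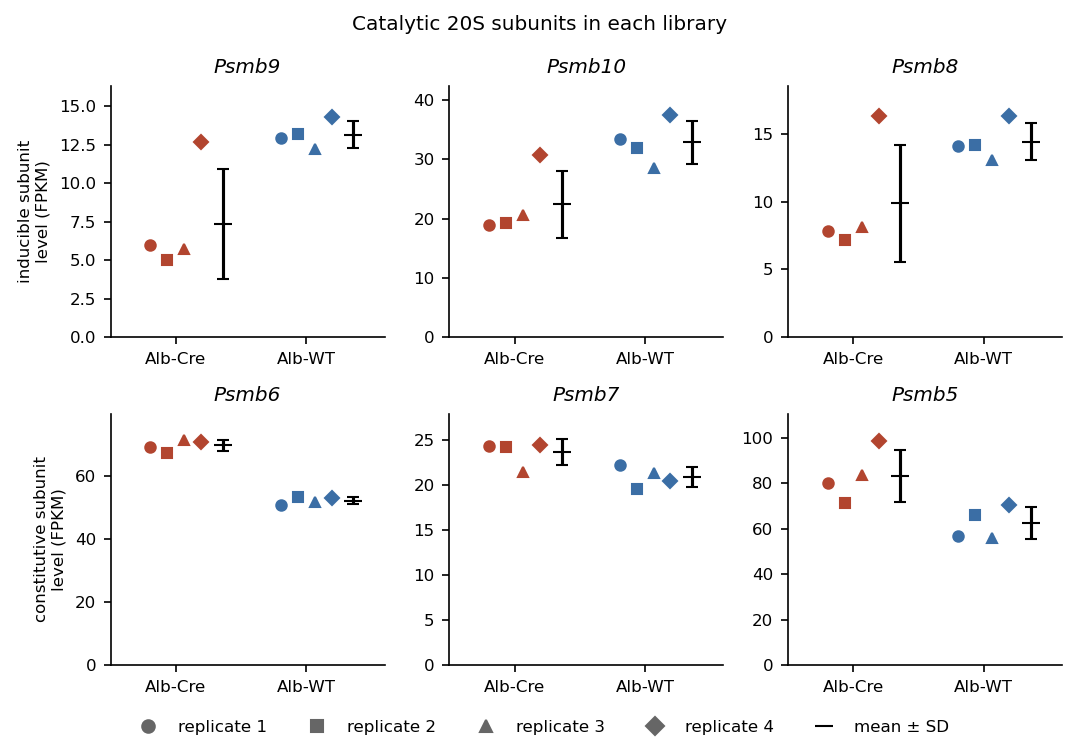
Levels of the inducible (top row) and constitutive (bottom row) catalytic 20S subunits in FPKM, by library, with Alb-Cre left of Alb-WT in each panel, the replicate number as the marker shape and mean ± SD beside the points. In the top row Alb-Cre replicates 1 to 3 lie below every Alb-WT library and replicate 4 does not; in the bottom row Psmb6 and Psmb5 are higher in every Alb-Cre library.

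PA28 alpha and beta, the interferon-induced ring that caps the 20S core, showed the same split between libraries with smaller differences. Psme1 had 46.3, 44.1, 48.1 and 63.9 FPKM in the Alb-Cre libraries, against 58.5, 61.0, 57.1 and 61.0 FPKM in the Alb-WT libraries. Psme2 had 51.1, 44.4, 50.8 and 72.2 FPKM in the Alb-Cre libraries, against 58.8, 56.9, 55.4 and 65.9 FPKM in the Alb-WT libraries. For both genes Alb-Cre replicates 1 to 3 were below every Alb-WT library, while replicate 4 was above every one of them. Neither passed with all libraries, at log2 fold changes of -0.24 for Psme1 (limma adjusted p = 0.118) and -0.14 for Psme2 (limma adjusted p = 0.461). Without Alb-Cre replicate 4 both passed, at -0.36 for Psme1 (limma adjusted p = 0.000122, the range over 17 alternatives being 0.000122 to 0.651) and -0.28 for Psme2 (0.00661, range 0.00661 to 0.816). The sign for Psme2 depended on the scaling, being 0.06 under median-of-ratios scaling of the libraries.

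As a set, the 5 inducible genes Psmb8, Psmb9, Psmb10, Psme1 and Psme2 had a median log2 fold change of -0.55, and all 5 fold changes were negative, Psme2 turning positive under median-of-ratios scaling. With all libraries 2 passed lower and 0 passed higher. Without Alb-Cre replicate 4 all 5 passed lower, at a median of -0.71, where 46.1% of all genes tested were called lower. Over all genes tested the median log2 fold change was -0.13, and -0.16 without that library.

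Of the 3 constitutive catalytic subunits 2 rose, beside 8.48% of all genes tested. Psmb6, the beta1 subunit with caspase-like activity, had 69.3, 67.4, 71.3 and 70.9 FPKM in the Alb-Cre libraries, against 50.8, 53.5, 51.6 and 52.9 FPKM in those of Alb-WT. The groups were well apart, and Alb-Cre replicate 4 lay with the rest of its group. Psmb6 averaged 69.8 ± 1.77 FPKM in Alb-Cre and 52.2 ± 1.23 FPKM in Alb-WT livers (SD, n = 4 each), and it rose by 0.41 on the log2 scale (SE 0.0539, limma adjusted p = 0.00155). It passed in all 17 alternatives, with limma adjusted p from 2.27e-05 to 0.0201.

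Psmb5, the beta5 subunit with chymotrypsin-like activity, had 80, 71.2, 83.9 and 98.5 FPKM in the Alb-Cre libraries, against 57.0, 66.1, 56.0 and 70.5 FPKM in the Alb-WT libraries. Its lowest Alb-Cre library stood just above its highest Alb-WT library, and replicate 4 was the highest of all 8. Psmb5 averaged 83.4 ± 11.4 FPKM in Alb-Cre and 62.4 ± 7.06 FPKM in Alb-WT livers (SD, n = 4 each), a log2 fold change of 0.41 (SE 0.114, limma adjusted p = 0.0275). The call was lost without Alb-Cre replicate 1 or 3 and without Alb-WT replicate 1, 2 or 3 (limma adjusted p up to 0.0792). Psmb7, the beta2 subunit with trypsin-like activity, had 24.4, 24.3, 21.5 and 24.5 FPKM in the Alb-Cre libraries, against 22.2, 19.6, 21.3 and 20.5 FPKM in those of Alb-WT. The groups overlapped through Alb-Cre replicate 3, and the log2 fold change of 0.17 did not pass (SE 0.0679, limma adjusted p = 0.0821).

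The ratio of an inducible subunit to the one it replaces, taken within a library, does not depend on how libraries were scaled to each other. The ratio of Psmb9 to Psmb6 was 0.0865, 0.0739, 0.0807 and 0.179 in the Alb-Cre libraries, against 0.255, 0.246, 0.235 and 0.271 in the Alb-WT libraries. For Psmb8 to Psmb5 it was 0.0978, 0.101, 0.0968 and 0.165 in the Alb-Cre libraries, against 0.248, 0.215, 0.235 and 0.231 in the Alb-WT libraries. For Psmb10 to Psmb7 it was 0.772, 0.797, 0.958 and 1.26 in the Alb-Cre libraries, against 1.51, 1.63, 1.34 and 1.83 in the Alb-WT libraries. Every Alb-Cre library, replicate 4 included, was below every Alb-WT library in all 3 ratios, although replicate 4 was the highest of its group each time. In replicate 4 Psmb9 and Psmb10 lay within the Alb-WT range and Psmb8 was at its top. Psmb6, Psmb5 and Psmb7 there exceeded every Alb-WT library. On the deposited scale the constitutive partners in that library were thus above the Alb-WT range, and the inducible ones were not below it. Psmb10 and Psmb9 stood there at 93.7% and 96.7% of their Alb-WT means, and Psmb8 at 113%. Unlike the ratio, the part of each partner in it depends on the scaling of the libraries, and it was not tested.

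On the log2 scale the ratio was lower in Alb-Cre livers by a factor of 2.57 for Psmb9 to Psmb6 (difference -1.36), 2.07 for Psmb8 to Psmb5 (difference -1.05) and 1.69 for Psmb10 to Psmb7 (difference -0.75). Each gave p = 0.0286 by an exact two-sided permutation test over 70 assignments of the libraries, n = 4 each, which is the smallest p this design allows, and 0.0286 after Benjamini-Hochberg adjustment over the 3 ratios. Without Alb-Cre replicate 4 the differences were -1.65, -1.23 and -0.90 in the same order. With 3 libraries against 4 the smallest p the exact test allows is 0.0571. The ratios moved with both partners in the case of Psmb9 and Psmb6, since Psmb9 was called lower and Psmb6 higher.

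**Figure D2:**
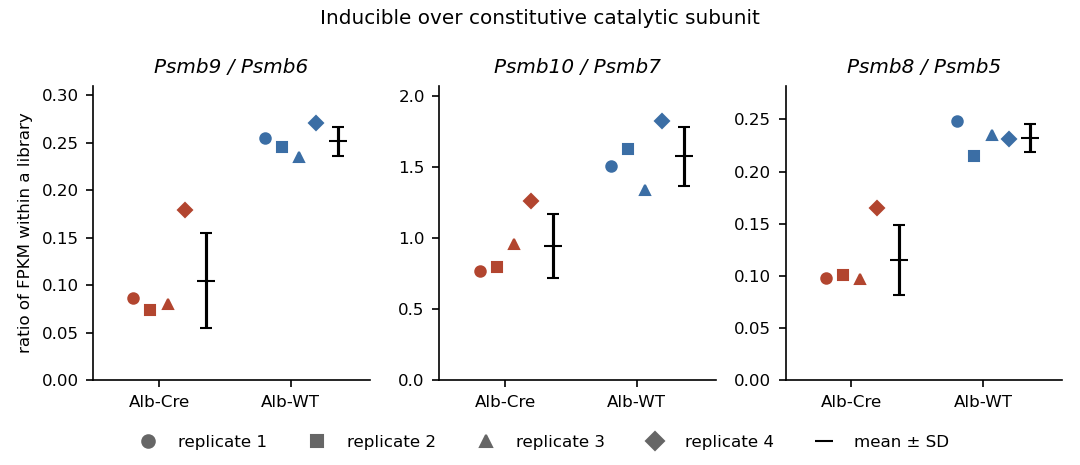
FPKM of each inducible catalytic subunit divided by that of the constitutive subunit it replaces, within each library, with Alb-Cre left of Alb-WT, the replicate number as the marker shape and mean ± SD beside the points. All 4 Alb-Cre libraries lie below all 4 Alb-WT libraries in each panel, and Alb-Cre replicate 4 is the closest to them.

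In each catalytic pair the fold changes of the genes had opposite signs, although those of Psmb8 and Psmb7 did not pass with all libraries. No RefSeq window was found for Psmb7, so only the start regions of the beta1 and beta5 pairs are shown. They come from RefSeq (GRCm38.p6) and run from 250 bases before to 50 bases after the annotated start of transcription, 5′ to 3′ on the gene's strand. Capitals mark a match to a motif, on either strand. In Psmb9 (chr17:34187281-34187580, minus strand) it is a CCAAT box, letters CCAAT, read on the opposite strand. In Psmb8 (chr17:34197945-34198244, plus strand) it is the letters of a gamma-activated site, TTCNNNGAA, an element of interferon-induced genes. In Psmb6 (chr11:70525107-70525406, plus strand) and Psmb5 (chr14:54617946-54618245, minus strand) it is the core letters of an antioxidant response element, TGACNNNGC, the element bound by the proteasome gene activators NRF1 and NRF2.
Psmb9: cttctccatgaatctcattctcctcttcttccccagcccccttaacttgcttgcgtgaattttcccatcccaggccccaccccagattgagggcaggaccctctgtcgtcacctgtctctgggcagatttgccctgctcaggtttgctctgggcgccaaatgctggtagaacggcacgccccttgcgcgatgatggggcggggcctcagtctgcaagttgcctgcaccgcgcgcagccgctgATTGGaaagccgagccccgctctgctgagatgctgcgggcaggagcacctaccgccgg
Psmb6: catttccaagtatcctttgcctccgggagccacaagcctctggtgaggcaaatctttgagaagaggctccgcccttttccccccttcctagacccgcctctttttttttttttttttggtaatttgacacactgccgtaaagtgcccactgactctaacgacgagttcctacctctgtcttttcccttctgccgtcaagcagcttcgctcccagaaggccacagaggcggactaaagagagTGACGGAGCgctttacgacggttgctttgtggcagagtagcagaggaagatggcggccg
Psmb8: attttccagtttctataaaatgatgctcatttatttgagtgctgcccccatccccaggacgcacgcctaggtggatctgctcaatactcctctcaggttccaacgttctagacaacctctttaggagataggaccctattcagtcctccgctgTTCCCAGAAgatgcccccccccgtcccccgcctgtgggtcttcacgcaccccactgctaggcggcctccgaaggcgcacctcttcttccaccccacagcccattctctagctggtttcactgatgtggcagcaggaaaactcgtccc
Psmb5: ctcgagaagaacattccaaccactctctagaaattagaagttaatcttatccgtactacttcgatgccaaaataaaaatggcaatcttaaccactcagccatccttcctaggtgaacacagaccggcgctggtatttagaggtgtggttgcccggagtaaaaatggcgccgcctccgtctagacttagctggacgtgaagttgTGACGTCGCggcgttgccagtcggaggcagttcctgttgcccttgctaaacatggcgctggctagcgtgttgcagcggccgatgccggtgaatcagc

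Such matches are frequent. RefSeq windows were found for 38 of the 45 genes, 42 windows in all, and were read beside all 32851 windows. The gamma-activated site letters stood in 2 of the 42 windows (Psmb8 and Psmd2), 4.76%, against 8.30% of all windows. The interferon-stimulated response element core, GAAA followed by any 2 bases and GAAA, stood in 4 (Psmb3, Psmd4, Psmd9 and Psme1), 9.52%, against 3.44% of all windows. The antioxidant response element core stood in 6 (Psmb5, Psmb6, Psmc6, Psmd12, Psmd9 and Psme4), 14.3%, against 12.4%, and the CCAAT box in 15, 35.7%, against 37.4%. These are matches of letters and not sites of binding.

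The genes around the inducible subunits were read as well. Psmb9 and Psmb8 lie next to Tap1 and Tap2, the peptide transporter genes of the MHC region of chromosome 17, in the order Psmb9, Tap1, Psmb8 and Tap2. Psmb9 and Tap1 are transcribed away from each other, and their start windows share 275 bases. Tap1, named for this after its values were seen, had 3.42, 4.01, 4.35 and 11.4 FPKM in the Alb-Cre libraries, against 15.0, 14.4, 14.4 and 15.7 FPKM in the Alb-WT libraries. It fell by 1.36 on the log2 scale (limma adjusted p = 0.0106), with Alb-Cre replicate 4 between the groups. In the GENCODE M21 annotation 14.7% of Psmb8 exon bases overlap a gene on the opposite strand, and 5.8% of those of Psmb9 overlap Tap1, and since no strand setting is given in the sources used here, fragments from such stretches cannot be told apart. The same holds for 11.8% of the exon bases of Psmb7, which overlap a gene on the opposite strand. Of Psmb5, 12.1% of exon bases overlap a microRNA gene on the same strand, which no strand setting would separate.

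Of the 4 beta subunits that only build the 20S ring 3 rose in Alb-Cre livers on the deposited scale, beside 8.48% of all genes tested. After rescaling to a common FPKM sum 0 rose, where 623 of the 11077 genes tested were called higher. The 3 that rose on the deposited scale were Psmb2 (log2 fold change 0.25, limma adjusted p = 0.0245), Psmb1 (0.23, 0.0166) and Psmb3 (0.21, 0.0417). Psmb1 had 29.3, 29.2, 28.6 and 30.2 FPKM in the Alb-Cre libraries, against 24.3, 26, 25.1 and 23.7 FPKM in the Alb-WT libraries, with no overlap and little spread. Psmb4 had 76.7, 67.7, 77.9 and 101 FPKM in the Alb-Cre libraries, against 69.1, 66.0, 67.7 and 73.9 FPKM in the Alb-WT libraries. Its difference of 0.21 on the log2 scale did not pass (SE 0.113, limma adjusted p = 0.181), and Alb-Cre replicate 4 stood far above the rest. Psmb1 lost its call without Alb-WT replicate 1, Psmb2 without that library, Alb-WT replicate 3 or Alb-Cre replicate 3, and Psmb3 without any library but Alb-Cre replicate 4.

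Of the 7 alpha subunits, which form the outer rings and the gate of the core, 0 were called in either direction by limma, and 0 by voom on recovered fragments. At an unadjusted p under 0.05 there was 1, with no share over all genes tested given here. Without Alb-Cre replicate 4 there were 2 called higher, beside 15.2% of all genes tested. Under median-of-ratios scaling there were 4, beside 16.9% of all genes tested. Their log2 fold changes ran from -0.07 (Psma5) to 0.16 (Psma3), with a median of 0.12. Psma6, the most abundant proteasome gene here, averaged 86.4 ± 2.34 FPKM in Alb-Cre and 77.9 ± 3.36 FPKM in Alb-WT livers (SD, n = 4 each). Its groups did not overlap, yet its log2 fold change of 0.15 did not pass (limma adjusted p = 0.0823). Psma4 averaged 63.5 ± 2.05 FPKM in Alb-Cre and 60.8 ± 2.92 FPKM in Alb-WT livers (SD, n = 4 each), with overlapping groups.

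The 19S cap showed small differences. Of its 17 subunits 2 rose (11.8%, near the 8.48% of all genes tested) and 0 fell, with a median log2 fold change of 0.11 and 14 positive values on the deposited scale. Without Alb-Cre replicate 4, 5 of the 17 subunits of the cap rose and 1 fell, beside 15.2% and 46.1% of all genes tested. The 6 ATPases of its base, which unfold the substrate, ran from 0.04 (Psmc6) to 0.18 (Psmc2 and Psmc4), and 0 passed by limma or by voom. At an unadjusted p under 0.05 there were 2, with no share over all genes tested given here. Under median-of-ratios scaling 5 were called higher, beside 16.9% of all genes tested. Psmc5 averaged 60.6 ± 5.44 FPKM in Alb-Cre and 56.1 ± 1.44 FPKM in Alb-WT livers, and Psmc1 averaged 58.0 ± 5.38 FPKM in Alb-Cre and 55.1 ± 2.08 FPKM in Alb-WT livers (SD, n = 4 each), both with overlapping groups.

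Among the 11 subunits of the cap that are not ATPases, Psmd8, a subunit of the lid, had the largest difference. It had 29.4, 30.6, 30.1 and 37.8 FPKM in the Alb-Cre libraries, against 21.9, 24.3, 24.4 and 25.8 FPKM in the Alb-WT libraries. All Alb-Cre libraries were above all Alb-WT libraries, with replicate 4 the highest. It rose by 0.39 (SE 0.0918, limma adjusted p = 0.0160), by 0.31 without Alb-Cre replicate 4, and passed in 15 of 17 alternatives (limma adjusted p 0.00109 to 0.0659), the call being lost without Alb-WT replicate 1. Psmd14, the protease of the lid that removes ubiquitin chains, had 22.4, 20.7, 21.2 and 22.0 FPKM in the Alb-Cre libraries, against 19.4, 19.2, 18.2 and 17.8 FPKM in the Alb-WT libraries. Its groups did not overlap, and it rose by 0.20 (limma adjusted p = 0.0313), a call kept in 2 of the 8 fits without 1 library, those without Alb-Cre replicate 2 or 4. The ubiquitin receptor Psmd4 averaged 39.4 ± 3.56 FPKM in Alb-Cre and 41 ± 3.09 FPKM in Alb-WT livers, and the scaffold Psmd2 averaged 44.5 ± 3.61 FPKM in Alb-Cre and 41.3 ± 2.47 FPKM in Alb-WT livers (SD, n = 4 each), both with overlapping groups. The lowest log2 fold change of the 17 was that of Psmd1, at -0.18 (limma adjusted p = 0.107). Psmd1 passed lower without Alb-Cre replicate 4, at -0.20 (limma adjusted p = 0.0468, range over 17 alternatives 0.0468 to 0.998).

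Of 3 chaperones that help to assemble the cap 1 fell, beside 23.3% of all genes tested. Psmd9 had 4.28, 3.63, 4.22 and 4.33 FPKM in the Alb-Cre libraries, against 5.16, 4.99, 4.82 and 5.56 FPKM in the Alb-WT libraries. Every Alb-Cre library, replicate 4 included, was below every Alb-WT library, and the gene fell by 0.26 (SE 0.0732, limma adjusted p = 0.0276). It lost the call in each fit without 1 library but that without Alb-Cre replicate 4, and 25.5% of its exon bases overlap an annotated gene on the opposite strand. Psmd5 and Psmd10 each had a log2 fold change of 0.09 and did not pass.

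Of the activators that interferon is not known for inducing, Psme3, the nuclear PA28 gamma, averaged 16.2 ± 1.52 FPKM in Alb-Cre and 18.5 ± 1.08 FPKM in Alb-WT livers (SD, n = 4 each; log2 fold change -0.18, limma adjusted p = 0.101). It passed lower without Alb-Cre replicate 4, at -0.24 (limma adjusted p = 0.00662, range over 17 alternatives 0.00662 to 0.963). Psme4, the activator PA200, averaged 13.2 ± 0.683 FPKM in Alb-Cre and 13.3 ± 0.724 FPKM in Alb-WT livers (SD, n = 4 each). Psme2b, a near copy of Psme2, had 0.109, 0.214, 0.200 and 0.915 FPKM in the Alb-Cre libraries, against 2.21, 1.75, 1.58 and 1.32 FPKM in the Alb-WT libraries. It was lower in all Alb-Cre libraries and fell by 1.02 (limma adjusted p = 0.00518), but it rests on 3 to 62 fragments per library, and fragments it shares with Psme2 may have been split between them.

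The remaining matches to the symbol rule were few and low. Psma8, an alpha subunit of the testis, had 0.367, 0.192, 0.505 and 0.317 FPKM in the Alb-Cre libraries, against 0.0717, 0.144, 0.229 and 0.0866 FPKM in the Alb-WT libraries, and was not tested because its mean was under 0.5 FPKM. Psmc3ip, a gene of meiotic recombination, was not tested for the same reason, at 0.117 to 0.526 FPKM in the Alb-Cre and 0.141 to 0.331 FPKM in the Alb-WT libraries. Psme3ip1, whose product binds PA28 gamma, averaged 7.63 ± 0.909 FPKM in Alb-Cre and 6.80 ± 0.299 FPKM in Alb-WT livers (SD, n = 4 each) and did not pass. With these, all 45 genes are accounted for and 43 were tested.

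**Figure D3:**
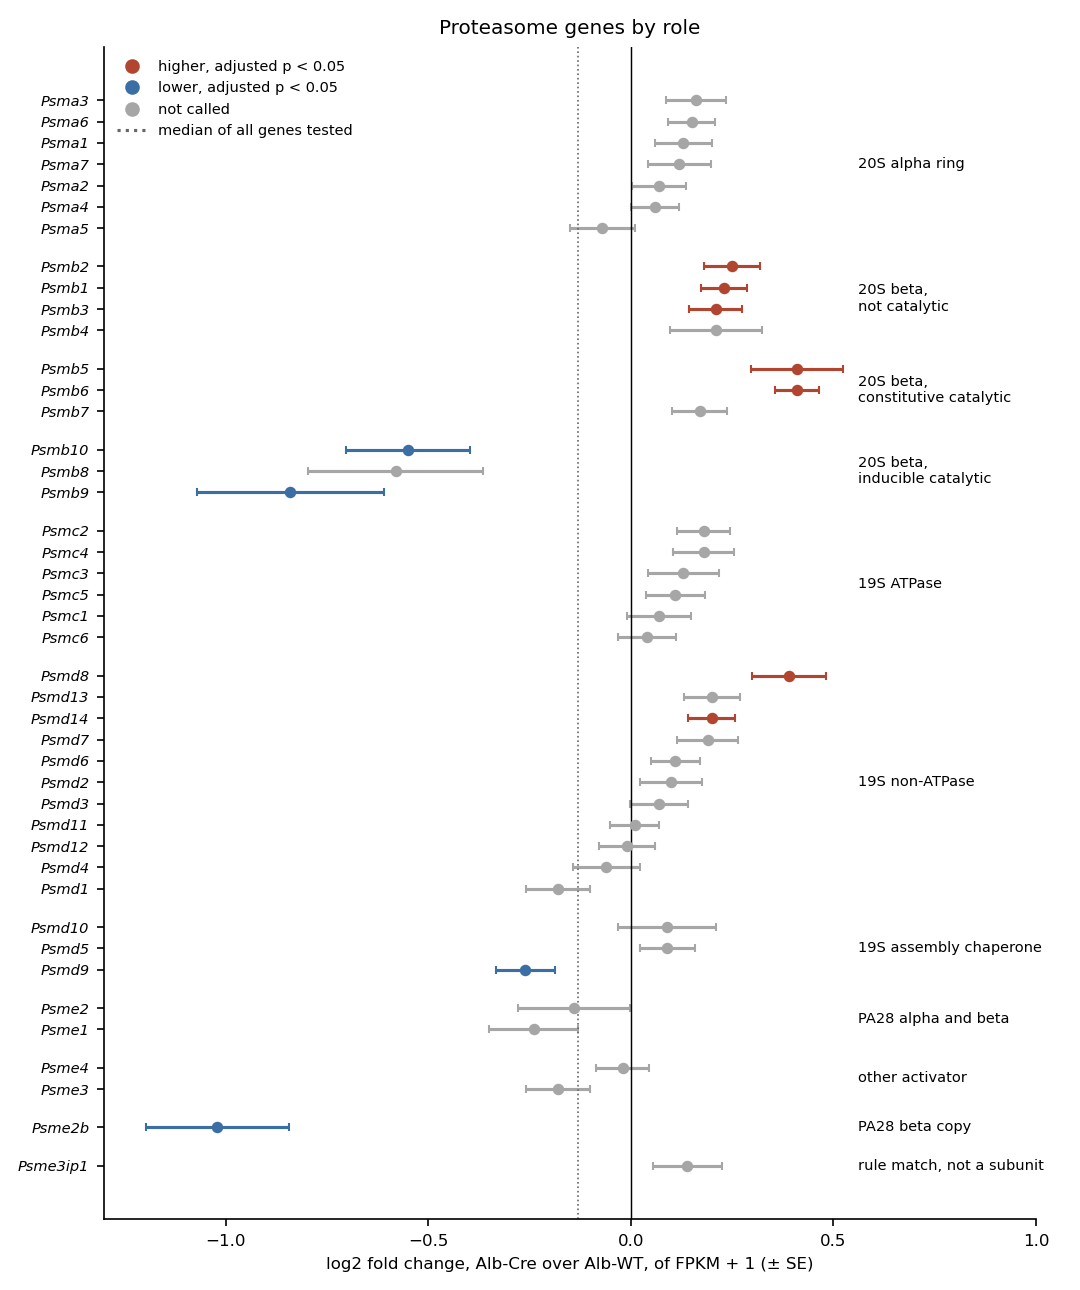
Log2 fold change of Alb-Cre over Alb-WT, on log2(FPKM + 1), with its standard error, for the 43 tested genes grouped by role; colour gives the limma call at an adjusted p under 0.05 and the dotted line the median of all genes tested, -0.13. The constitutive subunits cluster between -0.18 and 0.41 and the inducible catalytic subunits between -0.84 and -0.55.

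Over all 43 tested genes 7 rose, 4 fell and 32 did not pass, with a median log2 fold change of 0.10. The 7 that rose were 16.3% of the genes and the 4 that fell 9.30%, beside the 8.48% and 23.3% of all genes tested (31.8% in either direction). Groups did not overlap for 12 genes with higher and 2 with lower Alb-Cre levels, beside 9.27% and 21.4% of all genes tested. All 7 rises were among the 31 constitutive subunits of the 26S particle, whose median was 0.13 with 27 positive values and 0 called lower. Of those 31, 12 had no overlap and were higher in Alb-Cre. Without Alb-Cre replicate 4, 12 of the 43 genes rose and 9 fell, beside 15.2% and 46.1% of all genes tested (61.3% in either direction). In that fit 12 of the 31 constitutive subunits were called higher and 1, Psmd1, lower.

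These counts depended on the scaling of the libraries. The median of all genes tested was -0.13 on the deposited scale and 0.02 after median-of-ratios scaling. On that second scale 22 of the 31 constitutive subunits passed higher and their median was 0.32, where 16.9% of all genes tested were called higher and 13.7% lower. After rescaling to a common FPKM sum 1 of the 31, Psmb6, passed and the median was 0.05. The calls of Psmb1, Psmb2, Psmb3, Psmb5, Psmd8, Psmd14, Pomp and Psmg2 ended there. Length correction and quantile normalization each ended those of Psmb2, Psmb3, Psmd9, Zfand5, Nfya and Ubqln2, length correction that of Ecpas, quantile normalization that of Psmb5, and median-of-ratios scaling those of Psmd9, Ecpas, Zfand5, Nfe2l2 and Ubqln2. The median of the 31 was above that of all genes tested on every scale tried, and none of the 31 was called lower on any of them. Of all calls made by limma, 73.3% were lower on the deposited scale, 82.9% after rescaling to a common sum, 44.7% after median-of-ratios scaling, 48.6% after quantile normalization and 51.8% after correction for gene length.

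Library by library, the constitutive and the inducible genes divided Alb-Cre replicate 4 in different ways. Deviations were taken from the Alb-WT mean of each gene on the log2 scale. The median deviation of the 3 inducible catalytic genes was -0.80, -0.91 and -0.76 in Alb-Cre replicates 1, 2 and 3, and -0.04 in replicate 4. That of the PA28 pair was -0.28, -0.41 and -0.26 in Alb-Cre replicates 1, 2 and 3, and 0.19 in replicate 4. For the 3 constitutive catalytic genes it was 0.36, 0.21, 0.43 and 0.44 in Alb-Cre replicates 1 to 4, and for the 31 constitutive subunits 0.15, 0.10, 0.15 and 0.22. By these medians replicate 4 stood near the Alb-WT libraries in the inducible genes and with its own group in the constitutive ones. Single genes departed from this. Psme1 and Psme2 were above every Alb-WT library there. Psmd4 deviated by 0.124 in replicate 4, against -0.107, -0.140 and -0.107 in Alb-Cre replicates 1 to 3, and Psmd8 by 0.632, against 0.280, 0.333 and 0.314. Of the 31, 25, 17, 21 and 22 exceeded every Alb-WT library in Alb-Cre replicates 1 to 4.

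**Figure D4:**
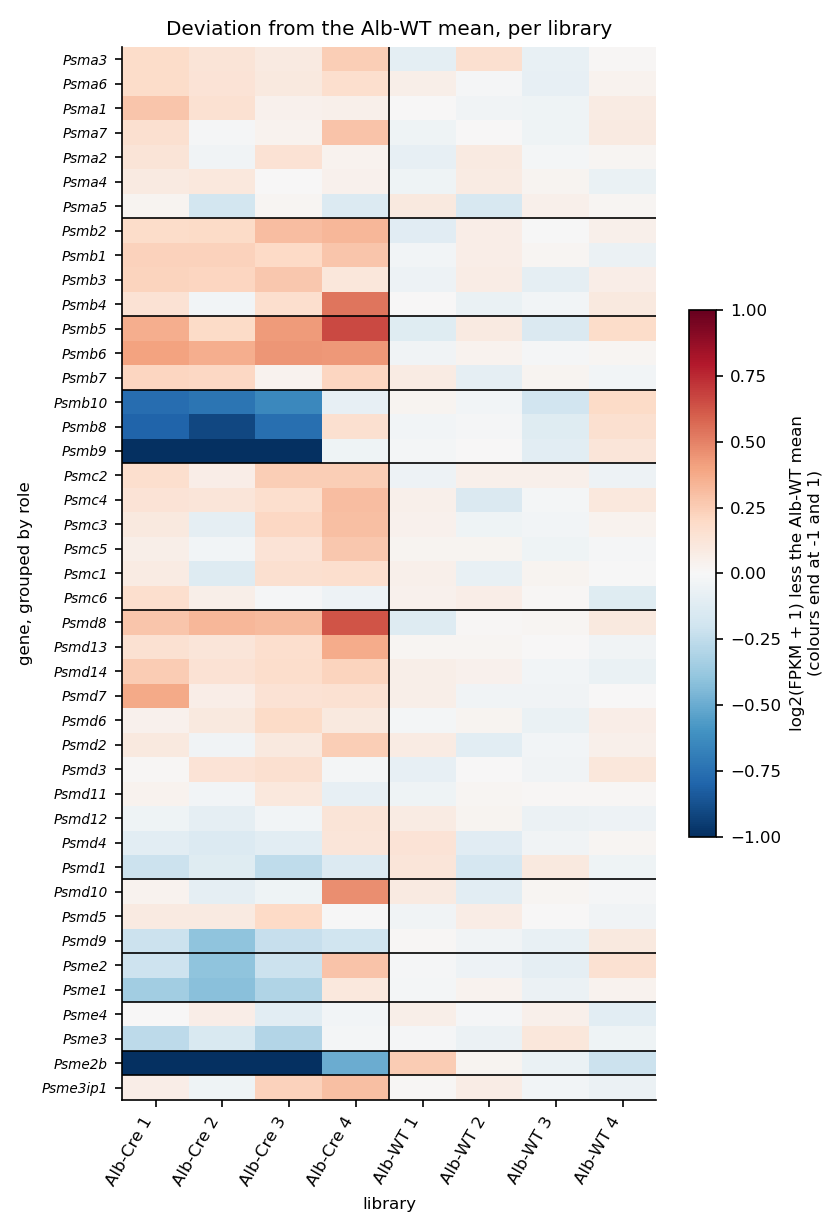
Deviation of log2(FPKM + 1) from the Alb-WT mean of the gene, for the 43 tested genes (rows, grouped by role) in each library (columns, Alb-Cre on the left); the colours end at -1 and 1. The inducible rows are blue in Alb-Cre replicates 1 to 3 and near white or red in replicate 4, while the constitutive rows are more often red than blue in each Alb-Cre library.

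Summed leukocyte markers were also low in Alb-Cre replicates 1 to 3 and higher in Alb-Cre replicate 4. The summed level of 6 Kupffer cell markers was 120 to 132 FPKM in Alb-Cre replicates 1 to 3 and 373 FPKM in replicate 4, against 424 to 451 FPKM in the Alb-WT libraries. That of 7 monocyte and macrophage markers was 21.6 to 22.9 FPKM in Alb-Cre replicates 1 to 3 and 86.3 FPKM in replicate 4, against 119 to 125 FPKM in the Alb-WT libraries. That of the 3 neutrophil markers listed, of 6 looked for, was 6.36 to 6.71 FPKM in Alb-Cre replicates 1 to 3 and 80.5 FPKM in replicate 4, against 251 to 317 FPKM in the Alb-WT libraries. Called lower were 6 of 6, 6 of 7 and 3 of 3 of these markers, beside 23.3% of all genes tested.

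Lymphocyte markers were low throughout. The 4 T cell markers listed, of 6, summed to 0.856 to 1.36 FPKM in Alb-Cre replicates 1 to 3 and 5.18 FPKM in replicate 4, against 3.05 to 3.47 FPKM in those of Alb-WT. The 4 NK cell markers listed, of 5, summed to 0.525 to 1.23 FPKM in Alb-Cre replicates 1 to 3 and 9.20 FPKM in replicate 4, against 6.28 to 9.52 FPKM in those of Alb-WT. The 5 B and plasma cell markers listed, of 6, summed to 2.95 to 3.70 FPKM in Alb-Cre replicates 1 to 3 and 15.3 FPKM in replicate 4, against 5.88 to 7.10 FPKM in the Alb-WT libraries. Trac, Cd8a and Ncr1 were among the markers not listed, and the table lists no value of 0. Replicate 4 was thus near or above the Alb-WT libraries in all 3 sums, though not in every marker. Its NK cell sum held 6.06 FPKM of Nkg7, while Klrb1c and Prf1 were below every Alb-WT library. Its B and plasma cell sum held 9.73 FPKM of Jchain. Called lower were 0 of 3 T cell, 1 of 2 NK cell and 0 of 3 B and plasma cell markers tested, beside 23.3% of all genes tested. Without Alb-Cre replicate 4 all of them were, beside 46.1% of all genes tested.

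Hepatocyte markers were lowest in Alb-Cre replicate 4. The 6 hepatocyte markers summed to 41198 to 42739 FPKM in Alb-Cre replicates 1 to 3 and 30352 FPKM in replicate 4, against 39068 to 39854 FPKM in those of Alb-WT. Alb made up most of each sum, and the markers differed in direction. In Alb-Cre replicates 1 to 3 Cyp2e1 and Apoa1 were below every Alb-WT library, while Alb, Ttr and Serpina1c were above. With all libraries 1 of the 6, Cyp2e1, was called lower and 0 higher, beside 23.3% and 8.48% of all genes tested. The summed levels of endothelial markers were 16.3 to 16.6 FPKM in Alb-Cre replicates 1 to 3 and 15.7 FPKM in replicate 4, against 24.4 to 26.6 FPKM in the Alb-WT libraries. Of the 5 endothelial markers 3 were called lower, beside 23.3% of all genes tested, while Pecam1 and Kdr were not called. The sums of dendritic cell markers (2 listed, of 5), stellate cell markers and cholangiocyte markers were also lower in Alb-Cre replicates 1 to 3 than in every Alb-WT library. Of the stellate cell markers Reln and Lrat overlapped in those replicates. In replicate 4 the dendritic cell sum was 3 FPKM, above the Alb-WT range of 2.27 to 2.79 FPKM. Its stellate cell sum of 37.5 FPKM and cholangiocyte sum of 61.8 FPKM were below the Alb-WT ranges of 47.9 to 50.8 FPKM and 79 to 92.2 FPKM. Called lower were 0 of 1, 2 of 5 and 4 of 4 of the markers tested in these lists, beside 23.3% of all genes tested. The part of these cell markers in the difference of the inducible proteasome genes was not tested.

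Genes that act around the proteasome were read from lists. Of 6 genes for 20S assembly 2 rose and 0 fell, beside 8.48% and 23.3% of all genes tested, at a median log2 fold change of 0.10; after rescaling to a common FPKM sum 0 rose and 1 fell. Pomp, which helps the core mature, had 27.9, 23.1, 25.9 and 28.0 FPKM in the Alb-Cre libraries, against 21.3, 21.8, 20.7 and 22.7 FPKM in the Alb-WT libraries, a rise of 0.26 (limma adjusted p = 0.0286). Psmg2, a chaperone of the alpha ring, rose by 0.27 (limma adjusted p = 0.0401), and its partner Psmg1 had a log2 fold change of 0.24 without passing (limma adjusted p = 0.0618; 0.0139 without Alb-Cre replicate 4, range over 17 alternatives 0.0139 to 0.252). Both rises were lost without Alb-Cre replicate 1 or 3 and without Alb-WT replicate 1, 2 or 3, and that of Psmg2 also without Alb-WT replicate 4.

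Of 12 proteasome-associated genes looked for, 9 were listed, of which 1 rose and 3 fell, beside 8.48% and 23.3% of all genes tested. After length correction 3 rose and 0 fell, and likewise under median-of-ratios scaling, where 16.9% and 13.7% of all genes tested did. Txnl1, a thioredoxin of the 19S cap, rose by 0.46 (limma adjusted p = 0.00670). Ecpas, an adaptor that binds the 26S particle, fell by 0.32 (limma adjusted p = 0.00658), and Zfand5, which stimulates the proteasome, fell by 0.32 (limma adjusted p = 0.0138). Sem1, a small subunit of the lid outside the symbol rule, had a log2 fold change of 0.30 and did not pass (limma adjusted p = 0.0516; 0.0290 without Alb-Cre replicate 4, range over 17 alternatives 0.0156 to 0.133).

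Of 6 genes that control proteasome transcription 3 fell and 0 rose, beside 23.3% and 8.48% of all genes tested, with a median log2 fold change of -0.33. All 6 fold changes were negative, of which 2 turned positive under median-of-ratios scaling, where 2 of the 6 were called lower, beside 13.7% of all genes tested. Nfe2l2 (NRF2) had 11.9, 12.9, 11.8 and 13.2 FPKM in the Alb-Cre libraries, against 16.3, 15.2, 16.6 and 16.3 FPKM in the Alb-WT libraries, with no overlap. It fell by 0.35 (limma adjusted p = 0.00596). Ddi2, the protease that releases the activator NRF1, fell by 0.41 (limma adjusted p = 0.00711), with every Alb-Cre library below every Alb-WT library. Nfya, a subunit of the factor that binds CCAAT boxes, fell by 0.42 (limma adjusted p = 0.0193), a call lost without any 1 library but Alb-Cre replicate 4 or Alb-WT replicate 1. Stat3, a transcription factor downstream of cytokine receptors, had a log2 fold change of -0.31 and did not pass (limma adjusted p = 0.166). Stat3 passed lower without Alb-Cre replicate 4, at -0.49 (limma adjusted p = 6.25e-05, range over 17 alternatives 6.25e-05 to 0.538).

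Of 14 genes of ubiquitin supply and shuttling tested 1 rose (7.14%) and 4 fell (28.6%), near the 8.48% and 23.3% of all genes tested, at a median log2 fold change of -0.02. Under median-of-ratios scaling 4 rose and 1 fell, beside 16.9% and 13.7% of all genes tested. Rps27a, which encodes ubiquitin fused to a ribosomal protein, had 118, 99.7, 111 and 113 FPKM in the Alb-Cre libraries, against 70.5, 77.9, 73.1 and 81.4 FPKM in the Alb-WT libraries, a rise of 0.54 (limma adjusted p = 0.00224). Its groups did not overlap, and the call stood in all 17 alternatives. Ubqln2, a shuttle of tagged proteins, fell by 0.24 (limma adjusted p = 0.0182), a call lost without Alb-Cre replicate 1 or Alb-WT replicate 1 or 3. Ubb, a polyubiquitin gene, had 208, 201, 219 and 344 FPKM in the Alb-Cre libraries, against 250, 224, 248 and 241 FPKM in the Alb-WT libraries. Alb-Cre replicate 4 was above and its fellows were below every Alb-WT library, and the log2 fold change was -0.02 (limma adjusted p = 0.928). Without that library Ubb passed lower, at -0.20 (limma adjusted p = 0.00654, range over 17 alternatives 0.00654 to 0.991).

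Downstream of the immunoproteasome, 8 of 12 genes of MHC class I and peptide loading fell and 2 rose, beside 23.3% and 8.48% of all genes tested, at a median log2 fold change of -0.56. There were 9 lower and 3 higher without Alb-Cre replicate 4, beside 46.1% and 15.2% of all genes tested. Erap1, which trims peptides in the endoplasmic reticulum, had 9.83, 9.15, 8.83 and 9.96 FPKM in the Alb-Cre libraries, against 15.1, 16.0, 16.4 and 15.1 FPKM in the Alb-WT libraries. Its groups were apart, with replicate 4 inside its own group, and it fell by 0.67 (limma adjusted p = 0.000313). The 2 that rose, Calr by 0.62 (limma adjusted p = 0.00159) and Pdia3 by 0.57 (limma adjusted p = 0.000568), encode chaperones that also fold other glycoproteins. Canx, another chaperone of that kind, had a log2 fold change of 0.20 and did not pass (limma adjusted p = 0.0509). Canx passed higher without Alb-Cre replicate 4, at 0.24 (limma adjusted p = 0.00143, range over 17 alternatives 0.00143 to 0.501).

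Upstream, 12 of 16 interferon gamma signalling genes fell and 0 rose, beside 23.3% and 8.48% of all genes tested, at a median log2 fold change of -1.08. All 16 were called lower without Alb-Cre replicate 4, beside 46.1% of all genes tested. Ifngr1, a chain of the interferon gamma receptor, had 5.68, 6.44, 7.04 and 12.0 FPKM in the Alb-Cre libraries, against 15.0, 16.0, 14.5 and 14.4 FPKM in the Alb-WT libraries, and fell by 0.91 (limma adjusted p = 0.00912). Alb-Cre replicate 4 lay between its group and the Alb-WT libraries. Igtp, an interferon-induced GTPase, averaged 22.7 ± 20.9 FPKM in Alb-Cre and 127 ± 2.47 FPKM in Alb-WT livers (SD, n = 4 each) and fell by 2.75 (limma adjusted p = 0.00324). Cxcl9, an interferon-induced chemokine, had 2.12, 2.63, 2.96 and 72.8 FPKM in the Alb-Cre libraries, against 43.0, 47.3, 43.4 and 40.1 FPKM in the Alb-WT libraries. Alb-Cre replicate 4 was the highest of all 8, as it was for Psme1 and Psme2, and the log2 fold change of -2.55 did not pass (limma adjusted p = 0.0580). Without that library Cxcl9 passed, at -3.64 (limma adjusted p = 3.17e-10, range over 17 alternatives 3.17e-10 to 0.144).

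**Figure D5:**
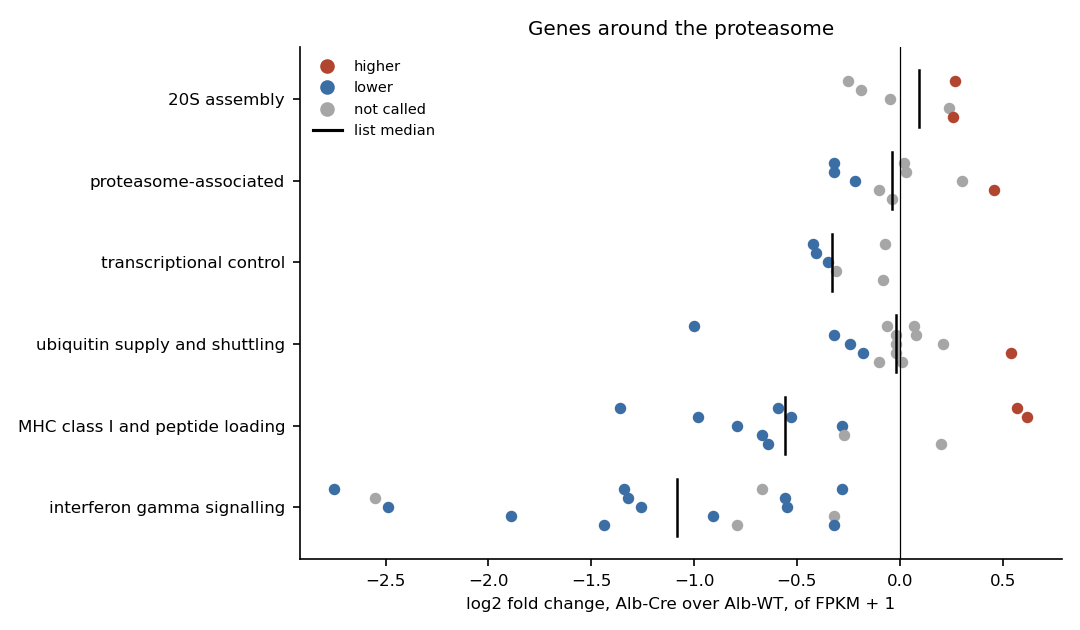
Log2 fold change of Alb-Cre over Alb-WT, on log2(FPKM + 1), for each tested gene of 6 lists around the proteasome (points, spread vertically for legibility), coloured by limma call at an adjusted p under 0.05, with each list's median as a bar. The median is near 0 for the assembly, proteasome-associated and ubiquitin lists, -0.56 for MHC class I and -1.08 for interferon gamma signalling.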

How the data were processed

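Bulk RNA sequencing of mouse liver was available as a table of FPKM, computed by the authors and deposited with a column for each of the 8 libraries. The submitters' processing notes name HISAT2 2.0.5 and the builds mm39 and hg38, the builds with no role. Not given in the sources used here are the counting tool, the annotation and the strand setting. The descriptions also say 10x Genomics, which the labels' bulk library protocol does not match. The groups and replicate numbers came from the titles.

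The test was limma 3.58.1 (R 4.3.3) on log2(FPKM + 1), with an intensity trend in the empirical Bayes step and genotype alone in the model. It ran over 11077 of 13703 rows, those averaging 0.5 FPKM or more. The pseudocount of 1 understates changes of low genes. Calls were made at a Benjamini-Hochberg adjusted p under 0.05 over all rows tested. The fit was tested on simulated data with known changes, in which no library stood apart from its group. That test therefore does not cover the spread brought by Alb-Cre replicate 4.

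Whole fragments were recovered from the steps between FPKM values for 100% of rows (tolerance 0.001), 92.9% of them at the merged exon length of GENCODE M21. With voom in limma, these fragments gave 930 genes higher and 2886 lower. Precision is limited by fragments for low genes only: the constitutive subunits had 1676 to 7765 per library. Every pair of libraries differed by more than counting noise.

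The members, lists, tests and alternatives were chosen with earlier results of these data known. Named were Bicd2, the 5 inducible and 3 constitutive catalytic genes, in each other role up to 4 called members with the largest change and the 2 most abundant not called, members under the filter, and in each list the 3 called genes with the smallest p and the most abundant not called, less 2 genes that are not reported here. Alternatives were other pseudocounts, filters, scalings, a length correction, a replicate block and leaving out each library. Tables, permutation tests and plots used pandas 2.3.3, numpy 2.4.6 and scipy 1.17.1 under Python 3.11.15, and matplotlib 3.10.9.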

Additional observations from a re-analysis of the deposited data

Results flagged for a closer look

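In groups of 4 libraries a value was flagged when its gap to the nearest other value as a share of the group's range was above Dixon's 95% critical value, which chance exceeds in about 1 in 20 groups. Of 98 groups checked 11 were flagged, 8 of them by Alb-Cre replicate 4. In that library Psmb9 was at 12.7 FPKM (other Alb-Cre libraries 4.99 to 6), Psmb10 at 30.8 FPKM (18.9 to 20.6), Psmb8 at 16.3 FPKM (7.19 to 8.12) and Psme2b at 0.915 FPKM (0.109 to 0.214). Among subunits of the 19S cap, Psmd8 was at 37.8 FPKM there (29.4 to 30.6) and Psmd4 at 44.7 FPKM (37.1 to 37.9). The ratio of Psmb8 to Psmb5 was 0.165 in that library (0.0968 to 0.101), and that of Psmb9 to Psmb6 was 0.179 (0.0739 to 0.0865).

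The other flagged values were lower than their group. Psmb7 was at 21.5 FPKM in Alb-Cre replicate 3, with the other Alb-Cre libraries at 24.3 to 24.5 FPKM. Psmd9 was at 3.63 FPKM in Alb-Cre replicate 2, with the others at 4.22 to 4.33 FPKM. Psmd11, a subunit of the lid, was at 15.1 FPKM in Alb-WT replicate 1, with the other Alb-WT libraries at 15.7 to 15.8 FPKM.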

How the results depend on the processing

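Genes called higher over the whole table (939) numbered 1874 with median-of-ratios scaling, 623 with a common FPKM sum, 1554 with quantile normalization and 546 to 1679 without 1 library. Genes called lower (2582) numbered 1516, 3013, 1469 in that order, 1503 after length correction, 981 at a mean of at least 5 FPKM and 1205 to 5112 without 1 library. Proteasome genes called higher (7) numbered 24 with median-of-ratios scaling, 1 with a common sum, 11 after length correction and 1 to 12 without 1 library, the fewest without Alb-WT replicate 1. Those called lower (4) numbered 2 at a mean of at least 5 FPKM and 1 to 9 without 1 library. Genes of the pathway lists called higher (6) numbered 13 with median-of-ratios scaling, 10 after length correction and 4 to 10 without 1 library, and those called lower (30) numbered 14 to 39 without 1 library. The counts without Alb-Cre replicate 4 were the highest of each range. The fold change of Bicd2 passed in every alternative.

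Some genes that did not pass changed sign. Under median-of-ratios scaling Psme2 came to 0.06, Psmd4 to 0.13, Psme3 to 0.00, Psme4 to 0.17 and Ubb to 0.17 on the log2 scale. With a common sum Psma4 came to -0.03 and Psmc1 to -0.02, and with quantile normalization Psma4 to -0.07, Psmc5 to -0.01, Psmc1 to -0.04 and Psme4 to 0.03. After length correction Psmd4 came to 0.00 and Psme4 to 0.17. Without 1 library Psme4 ran from -0.05 to 0.01 and Ubb from -0.20 to 0.06. The cause was not tested. Over 47 named genes 644 values kept direction and side of the threshold, 99 lost the call, 34 gained it and 19 changed sign.

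The 3 ratios kept their sign without any 1 library, at -1.65 to -1.22 for Psmb9 to Psmb6, -1.23 to -0.98 for Psmb8 to Psmb5 and -0.90 to -0.66 for the ratio Psmb10 to Psmb7, at the smallest exact permutation p for 3 against 4 libraries, 0.0571. The labels do not say whether replicate numbers pair the libraries. Deviations of equal numbers from their group means correlated at -0.0968 to 0.0131. Unequal numbers were not compared, so these values cannot decide on pairing. With the replicate block 613 genes were called higher and 1631 lower, 3 proteasome genes higher and 4 lower, and the ratios gave -1.36, -1.05 and -0.75 at an exact sign-flip p of 0.125, the smallest 4 pairs allow.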
